A study of Homo sapiens with 16 samples.

Results

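The E2F factors and the RB-like pocket proteins p107 and p130 were examined in H1299, a p53-null line derived from a non-small cell lung carcinoma, after knockdown of YEATS2, a histone-acetylation reader of the ATAC acetyltransferase complex. The genes E2F1 to E2F8, RBL1 and RBL2 were taken by symbol from the read count table of the mRNA-seq experiment. All 10 were among the 12676 genes listed there. Cells of both groups had been infected with pLKO lentivirus carrying either a non-targeting hairpin (shNT) or a hairpin against YEATS2 (shYEATS2, called YEATS2 KD cells here), with polybrene added at 8 µg/ml. They were then selected with 2 µg/ml puromycin for 4 to 7 days according to the labels, which do not name the hairpin used. The study describes duplicate RNA-seq with hairpin shY2-1, besides RNA-seq with another hairpin, and its methods give a shorter selection. If both YEATS2 KD libraries carry the same hairpin, its other effects cannot be told apart from loss of YEATS2. Each group had 2 libraries, numbered replicate 1 and replicate 2.

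E2F proteins bind the promoters of genes needed for DNA replication and cell division. E2F1, E2F2 and E2F3 are classed as activators that are held back by RB1 until cyclin-dependent kinases phosphorylate it. E2F4 and E2F5 repress together with the pocket proteins p107 (RBL1) and p130 (RBL2), E2F6 represses with Polycomb-type partners without any pocket protein, and the atypical E2F7 and E2F8 repress without a DP partner. Several of these genes are themselves E2F targets, so that the family forms feedback loops at the G1/S transition.

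Promoter sequence is shown for the members called lower (threshold given below) that had an entry in the RefSeq promoter table. It is also shown for E2F1 as the classical self-regulated member, and for E2F6 as the member that rose. Each line gives 120 bases before and 30 bases from the annotated start site on GRCh38.p14, 5′ to 3′ on the gene's strand. Capitals mark the word TTTCCCG, the word TTTCGCG, the word TTTGCCG or the word TTTGGCG, which are forms of the E2F consensus, found on either strand. The sequences are from RefSeq, and E2F5 and E2F8 had no entry.
E2F1 (chr20:33686356-33686505, minus strand): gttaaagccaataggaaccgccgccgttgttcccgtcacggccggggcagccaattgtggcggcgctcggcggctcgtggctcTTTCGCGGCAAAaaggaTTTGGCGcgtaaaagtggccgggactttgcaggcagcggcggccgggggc
E2F2 (chr1:23531204-23531353, minus strand): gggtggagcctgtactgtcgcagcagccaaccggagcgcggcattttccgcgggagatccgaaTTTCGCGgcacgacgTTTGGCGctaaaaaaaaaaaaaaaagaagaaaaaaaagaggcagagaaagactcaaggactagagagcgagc
RBL1 (chr20:37095968-37096117, minus strand): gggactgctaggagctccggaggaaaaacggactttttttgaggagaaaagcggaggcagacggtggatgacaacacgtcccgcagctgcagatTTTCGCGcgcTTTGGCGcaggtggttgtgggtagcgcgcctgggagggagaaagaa
E2F6 (chr2:11466132-11466281, minus strand): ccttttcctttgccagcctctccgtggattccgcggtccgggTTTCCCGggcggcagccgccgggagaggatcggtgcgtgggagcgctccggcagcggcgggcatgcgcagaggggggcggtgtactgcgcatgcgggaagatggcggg

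In E2F1, E2F2 and RBL1 a TTTCGCG word was followed by a TTTGGCG word on the same strand, close to the start site. In E2F2 they began 57 and 42 bases before the start, and in RBL1 26 and 16 bases before it. In E2F1 they began 37 and 20 bases before the start, with a TTTGCCG word on the other strand that shared 2 bases with the first and ran into the stretch between them. The E2F6 promoter held TTTCCCG at 78 and again at 183 bases before the start, the latter outside the printed stretch.

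**Figure D1:**
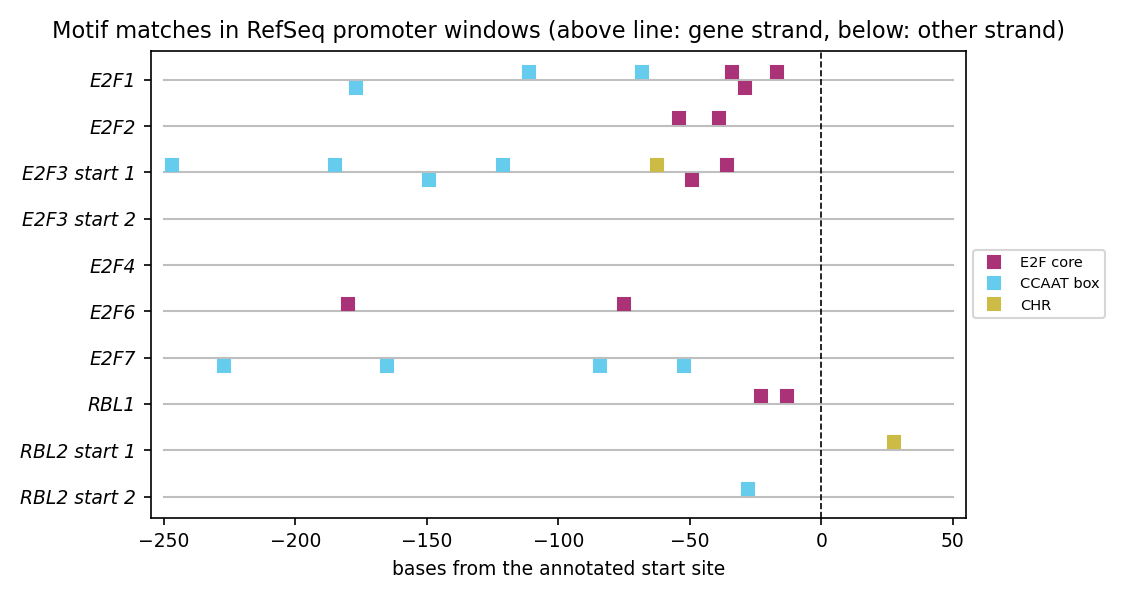
Matches of the E2F core words, of the CCAAT box and of the CHR word TTTGAA in the 10 RefSeq promoters of 8 members, plotted by distance in bases from the annotated start site. Squares above a line lie on the gene's strand and squares below it on the other strand, and E2F core words stand in E2F1, E2F2, one of the E2F3 promoters, E2F6 and RBL1.

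Promoters of 300 bases (250 before and 50 from the start) were available for 8 members, with 10 promoters in all since E2F3 and RBL2 had a pair each. The E2F words were found in 5 of the 10, each time at least in duplicate. Of the 35116 promoters in the table, 8.67% had any match and 0.681% had 2 or more. The words were chosen after the promoters had been seen, so these shares are a description and carry no test. No match was found in the windows of E2F4, E2F7, RBL2 and the downstream start of E2F3. E2F7 instead held 4 CCAAT words, a motif present in 34.6% of all promoters. Among the members not called lower, E2F1, E2F6 and the upstream start of E2F3 held E2F words as well. E2F2 and RBL1, which were called lower, both held E2F words. Whether a match goes with a fall in reads was not tested. E2F8, also called lower, had no entry.

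The libraries held 34718921 to 39417787 reads in the listed genes. Reads were scaled between libraries by TMM (trimmed mean of M values), and scaled reads are the count a gene would have at the mean effective library size. A gene was called lower or higher at a false discovery rate (FDR) under 0.01 in edgeR's quasi-likelihood test, adjusted by Benjamini-Hochberg over all 12676 genes. YEATS2 itself had 4482 and 4104 scaled reads under shNT but only 665 and 673 under shYEATS2, which left 15.6% of the control level. Of the cell markers looked up, the epithelial keratins KRT8 and KRT18, the mesenchymal VIM and the neuroendocrine SYP were listed, and none of 4 blood or 3 endothelial markers. Each listed gene had at least 101 reads in some library, so a gene under that level is not analysed here. The epithelial EPCAM, CDH1 and KRT19 and the lung lineage markers NKX2-1, SFTPB, SFTPC and NAPSA were not listed. Nor were the neuroendocrine CHGA, NCAM1 and INSM1. The mesenchymal and fibroblast markers COL1A1, COL1A2, COL3A1 and PDGFRA were absent too.

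Knockdown of YEATS2 was accompanied by lower reads of E2F8, E2F2 and RBL1 and by higher reads of E2F6. Of the 10 members, 3 were called lower, 1 was called higher and 6 were not called, whereas 12.5% of all genes were called lower and 12.9% higher. The log2 fold change was below 0 in 9 of the 10, although E2F3 turned to 0.025 when libraries were scaled by total counts. The median was -0.38 over the members and -0.0019 over all genes. In 7 members both YEATS2 KD libraries lay below both control libraries, in E2F6 they lay above, and in E2F3 and E2F7 the groups overlapped. Of all genes, 39.8% had both YEATS2 KD libraries below both controls and 39.7% had both above. In bulk RNA, fewer cells in a phase of the cell cycle and less RNA per cell cannot be told apart.

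**Figure D2:**
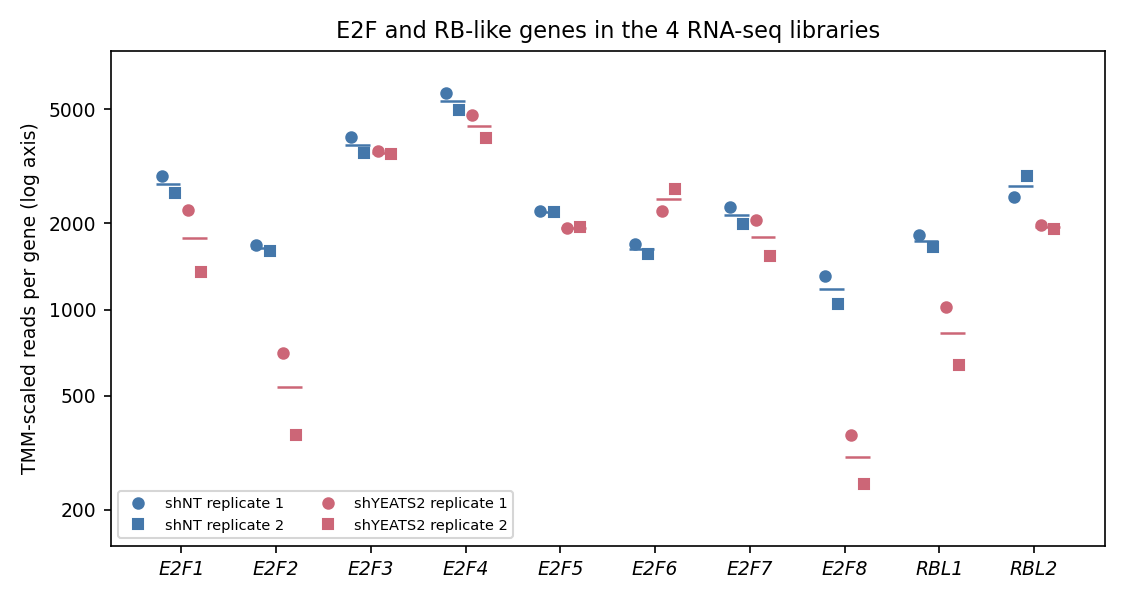
TMM-scaled reads (log axis) of the 10 genes in each of the 4 libraries, with circles for replicate 1, squares for replicate 2 and horizontal lines for the group means. The shYEATS2 points lie far below the shNT points in E2F2, E2F8 and RBL1, lie above them in E2F6, and are interleaved with them in E2F3 and E2F7.

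Of the activators, E2F2 was downregulated. E2F2 (ENSG00000007968, GRCh37 chromosome 1, 23832930 to 23857725, minus strand) had 1683 and 1596 scaled reads in the controls and 706 and 365 in the YEATS2 KD libraries. Both YEATS2 KD libraries were below both controls, and replicate 2 was the lower. The means were 1639 ± 61.6 and 536 ± 241 (SD, n = 2), with a log2 fold change of -1.62, a standard error of 0.27 and an adjusted p of 0.00446 (edgeR). It was called lower with each of the 4 libraries left out, at a log2 fold change between -2.17 and -1.21.

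E2F1 (ENSG00000101412, chromosome 20, 32263283 to 32274191, minus strand), the founding member and a target of its own family, had 2934 and 2549 scaled reads in the controls and 2217 and 1348 in the YEATS2 KD libraries. The groups did not overlap, but the YEATS2 KD libraries differed from each other more than the nearest of them did from the controls. The log2 fold change of -0.62 (standard error 0.22) was not called at an adjusted p of 0.0536 (edgeR). Without shYEATS2 replicate 1 it was -1.02 with an adjusted p of 0.00125, and without shYEATS2 replicate 2 it was -0.31 with an adjusted p of 0.0979. DESeq2 called E2F1 lower at an adjusted p of 0.00778.

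E2F3 (ENSG00000112242, chromosome 6, 20402110 to 20493945, plus strand) encodes E2F3a and E2F3b from separate starts, which counts per gene do not tell apart. Its scaled reads were 4004 and 3524 in the controls and 3568 and 3476 in the YEATS2 KD libraries, so the groups overlapped. Its log2 fold change of -0.10 had a standard error of 0.10 (adjusted p = 0.463, edgeR).

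The pocket-bound repressors E2F4 and E2F5 differed little between the groups. E2F4 (ENSG00000205250, chromosome 16, 67226058 to 67232821, plus strand), the main E2F of quiescent cells, had 5695 and 4982 scaled reads in the controls and 4774 and 3984 in the YEATS2 KD libraries. E2F5 (ENSG00000133740, chromosome 8, 86089389 to 86129387, plus strand) had 2208 and 2183 in the controls and 1921 and 1940 in the YEATS2 KD libraries. Both genes had the YEATS2 KD libraries below the controls, by -0.29 (standard error 0.12) and -0.19 (standard error 0.09) on the log2 scale, and neither was called (adjusted p = 0.0970 and 0.125, edgeR). E2F5 shares 991 exon bases, 16.5% of its exon length, with RBIS (C8orf59 in older naming) on the opposite strand. The TruSeq mRNA kit v2 does not mark strand, so reads from the shared bases cannot be told apart.

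E2F6 was the member that rose. E2F6 (ENSG00000169016, chromosome 2, 11584501 to 11606303, minus strand) had 1692 and 1559 scaled reads in the controls and 2215 and 2638 in the YEATS2 KD libraries. Both YEATS2 KD libraries were above both controls, and replicate 2 was the higher. The means were 1626 ± 94.5 and 2426 ± 299 (SD, n = 2), which is 1.49-fold, with a log2 fold change of 0.58, a standard error of 0.12 and an adjusted p of 0.00810 (edgeR). The call is close to the threshold. The adjusted p was 0.0221 without shNT replicate 1, 0.0434 without shNT replicate 2 and 0.0213 without shYEATS2 replicate 2, while the log2 fold change stayed between 0.45 and 0.70.

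Of the atypical repressors, E2F8 was downregulated and E2F7 was not called. E2F8 (ENSG00000129173, chromosome 11, 19245610 to 19263167, minus strand) had 1309 and 1044 scaled reads in the controls and 364 and 246 in the YEATS2 KD libraries. Both YEATS2 KD libraries were well below both controls. The means were 1177 ± 188 and 305 ± 83.3 (SD, n = 2), a 3.87-fold drop, with a log2 fold change of -1.95, a standard error of 0.21 and an adjusted p of 0.00130 (edgeR). Among the 12676 genes it was the 23rd from the lowest fold change, and it was called lower with each library left out, at a log2 fold change between -2.26 and -1.69.

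E2F7 (ENSG00000165891, chromosome 12, 77415028 to 77459349, minus strand), which acts with E2F8 and can pair with it, had 2280 and 1982 scaled reads in the controls and 2054 and 1534 in the YEATS2 KD libraries. The shYEATS2 replicate 1 library lay between the controls. Its log2 fold change of -0.25 had a standard error of 0.15 (adjusted p = 0.218, edgeR).

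Of the pocket proteins, RBL1 was downregulated. RBL1 (ENSG00000080839, chromosome 20, 35624752 to 35724400, minus strand), which encodes p107, the pocket protein of cycling cells, had 1816 and 1652 scaled reads in the controls and 1020 and 638 in the YEATS2 KD libraries. The groups did not overlap, and shYEATS2 replicate 2 was the lower. The means were 1734 ± 116 and 829 ± 270 (SD, n = 2), with a log2 fold change of -1.07, a standard error of 0.21 and an adjusted p of 0.00726 (edgeR). Without shNT replicate 1 the adjusted p was 0.0133 at a log2 fold change of -1.001, and RBL1 was called lower with each of the other 3 libraries left out.

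RBL2 (ENSG00000103479, chromosome 16, 53467889 to 53525560, plus strand), which encodes p130, the pocket protein of quiescent cells and part of the DREAM repressor complex, had 2462 and 2920 scaled reads in the controls and 1979 and 1905 in the YEATS2 KD libraries. The YEATS2 KD libraries were alike and below both controls. Its log2 fold change of -0.47 (standard error 0.11) had an adjusted p of 0.0145 (edgeR), so RBL2 missed the threshold. DESeq2 gave an adjusted p of 0.00346 and edgeR's exactTest, the function named in the study's methods, gave 0.00165. RBL2 shares 609 exon bases (7.51%) with AKTIP on the opposite strand.

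**Figure D3:**
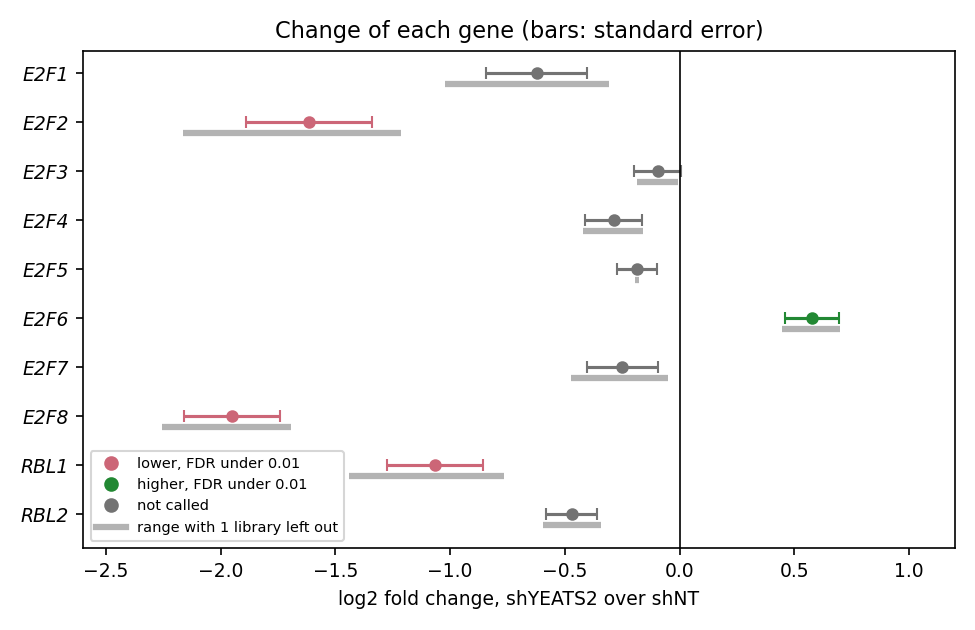
Log2 fold change of each gene, shYEATS2 over shNT, with bars for 1 standard error and gray bands for the range of fold changes over the fits with 1 library removed. E2F2, E2F8 and RBL1 lie below -1 and E2F6 lies above 0.5, while the standard error of E2F3 reaches 0.

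Close relatives were compared within each library by the ratio of their reads, which does not depend on library scaling. For E2F8 to E2F7 the ratio was 0.574 and 0.527 in the controls and 0.177 and 0.160 in the YEATS2 KD libraries, a 3.27-fold drop. For E2F2 to E2F3 it was 0.420 and 0.453 against 0.198 and 0.105, a 3.03-fold drop. For RBL1 to RBL2 it was 0.738 and 0.566 against 0.515 and 0.335, a 1.55-fold drop. All 3 ratios were lower in both YEATS2 KD libraries than in both controls. The exact two-sided permutation test gave p = 0.333 for each, the smallest value that 2 against 2 libraries allow. The pair RBL1 to RBL2 was set with the design, and the other two were chosen after their values had been seen.

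Levels were compared between genes as scaled reads per kilobase of annotated exon. In the controls the order from the highest was E2F4, E2F1, E2F3, E2F6, E2F5, E2F7, RBL2, E2F2, RBL1 and E2F8. E2F4 stood at 1485 ± 140 and E2F1 at 1019 ± 101 reads per kilobase (SD, n = 2), and the range of E2F4 lay above that of E2F1. From E2F7 down to E2F8 each gene's pair of control values overlapped that of its neighbour. In the YEATS2 KD libraries E2F4 remained first at 1218 ± 155 reads per kilobase. E2F1, at 663 ± 228, fell behind E2F3, at 679 ± 12.5, but these ranges overlapped, and the 2 values of E2F6 (545 and 649) lay within the range of E2F1. E2F8 was last in both groups, at 285 ± 45.5 reads per kilobase in the controls and 73.7 ± 20.1 in the YEATS2 KD cells. In the YEATS2 KD libraries the values of E2F8 (87.9 and 59.5) overlapped those of E2F2 (129 and 66.9).

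As a share of the reads per kilobase of all 8 E2F genes, E2F4 held 30.4% and 29.99% in the controls and 31.3% and 30.6% in the YEATS2 KD libraries. The share of E2F6 went from 7.98% and 8.30% to 12.8% and 17.9%. The activators E2F1 to E2F3 together held 41.6% and 41.5% in the controls and 38.6% and 34.2% in the YEATS2 KD libraries. E2F4 to E2F6 together held 45.4% and 46.2% against 51.6% and 57.4%, and E2F7 with E2F8 held 13.02% and 12.3% against 9.75% and 8.37%. Each of these class shares was separate between the groups. Since shares add up to the whole, a higher share of E2F6 is in part the lower reads of the other genes.

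The YEATS2 KD libraries differed from each other in several members. In 8 of the 10 members reads were lower in shYEATS2 replicate 2 than in replicate 1, with a median log2 difference of -0.34. Over all genes 50.6% were lower in replicate 2, with a median of -0.0041. The controls leaned the same way to a smaller extent, since 9 of the 10 members were lower in shNT replicate 2 than in replicate 1, with a median of -0.16. Between the shYEATS2 libraries the difference was -0.95 for E2F2, -0.72 for E2F1, -0.68 for RBL1 and -0.56 for E2F8. In these shYEATS2 libraries E2F3, E2F5 and RBL2 differed by -0.04, 0.01 and -0.05. YEATS2 itself differed by 0.02 between the same libraries. Without shYEATS2 replicate 2, the members called lower were still 3, and their family-wide median was -0.25.

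The genes that work with or downstream of the family were taken from lists written from general knowledge, with earlier results of these data already known. Counts within these lists are therefore a description and not independent evidence. Of the E2F and pocket partners, the DP subunit gene TFDP1 was downregulated, with 5196 and 4775 scaled reads in the controls and 2753 and 2106 in the YEATS2 KD libraries (log2 fold change -1.04, adjusted p = 0.00234, edgeR). RB1 was at 4033 and 4046 against 3320 and 3541 (log2 fold change -0.24, adjusted p = 0.0726). TFDP2, the other DP subunit, was at 1691 and 1878 against 2203 and 2055 (log2 fold change 0.25, adjusted p = 0.0772). Neither RB1 nor TFDP2 was called, and TFDP3 was not listed.

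Of 42 G1/S genes known as E2F targets, 33 were called lower and 0 higher, with a median log2 fold change of -1.16, beside 12.5% lower and 12.9% higher over all genes. At an unadjusted p under 0.05, 40 were lower and 0 higher, beside 27.8% and 28.7% of all genes. DESeq2 called 38 lower and 0 higher, beside 17.3% and 17% of all genes. The leading falls were in RFC3, a subunit of the clamp loader (-1.92), the helicase factor MCM10 (-1.83), the cyclin gene CCNE2 (-1.74) and the ribonucleotide reductase subunit gene RRM2 (-1.74). CCNE1, which encodes the other E cyclin, had 882 and 726 scaled reads in the controls and 793 and 705 in the YEATS2 KD libraries (log2 fold change -0.10, adjusted p = 0.558, edgeR). CCNE2 had 1194 and 1056 in the controls and 418 and 258 in the YEATS2 KD libraries. The count called lower was between 25 and 40 when a library was left out.

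Of 30 G2/M genes controlled through the MuvB complex, 29 were called lower and 0 higher, with a median of -1.24, read against the same shares of all genes. At an unadjusted p under 0.05 the counts were likewise 29 and 0, and DESeq2 gave the same counts. The leading falls were in the cytokinesis gene ECT2 (-2.11), the centromeric histone gene CENPA (-1.67), the anaphase activator gene CDC20 (-1.62) and CKS2 (-1.61), whose product binds cyclin-dependent kinases. The phosphatase gene CDC25B was not called. Of the 9 genes of MuvB, MYB and FOXM1 factors 3 were called lower, namely MYBL2 (-1.24), FOXM1 (-1.01) and LIN9 (-0.80), beside 12.5% of all genes, and 0 were called higher. At an unadjusted p under 0.05, 4 were lower and 1 higher, and DESeq2 called 3 lower and 1 higher. The gene on the higher side was the kinase gene DYRK1A, at a log2 fold change of 0.46 (adjusted p = 0.0128, edgeR). MYBL2, which joins MuvB in S phase, had 12396 and 11480 scaled reads in the controls and 5999 and 4147 in the YEATS2 KD libraries. FOXM1, which follows it in G2, had 13202 and 14264 against 6864 and 6796.

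**Figure D4:**
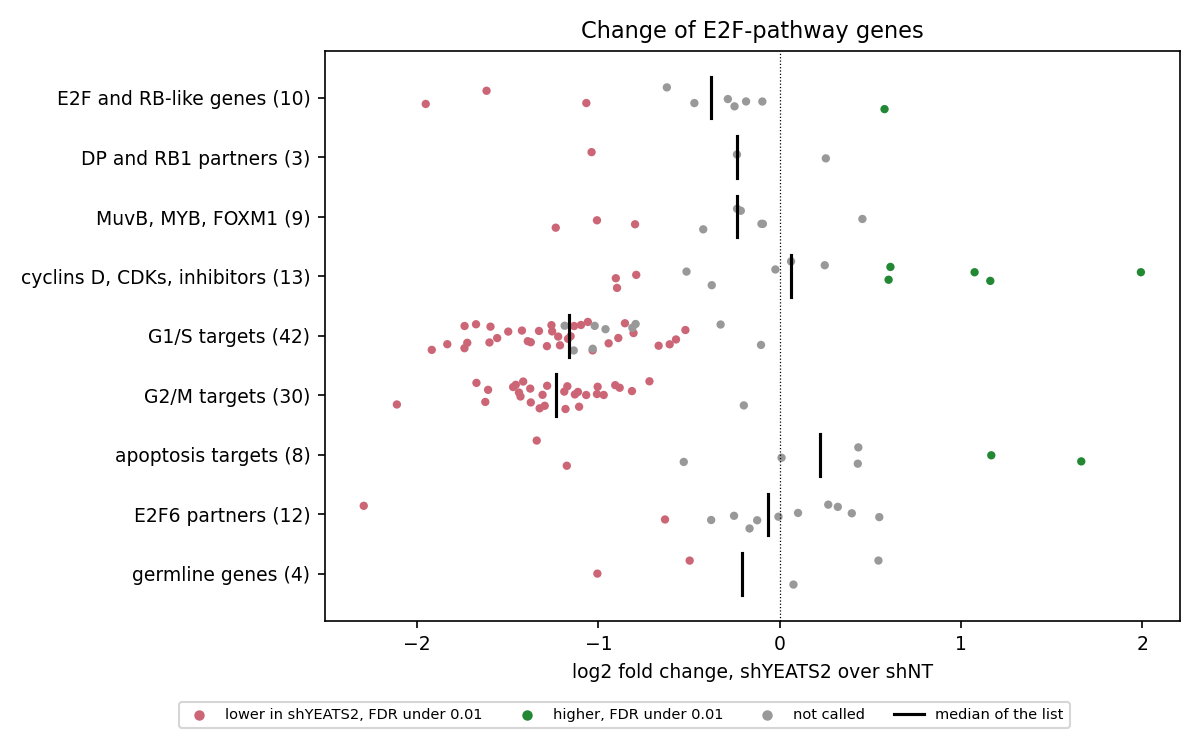
Log2 fold change, shYEATS2 over shNT, of the genes in each list, 1 point a gene and a black bar for the list median, with the number of listed genes in brackets. On the TMM scale the 42 G1/S and 30 G2/M targets all lie below 0, with medians of -1.16 and -1.24, the E2F and RB-like genes are spread from -1.95 to 0.58, and the cyclins and inhibitors lie on both sides.

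The target lists differed from each other in how far the YEATS2 KD libraries stood apart. Of the 42 G1/S genes, 41 were lower in shYEATS2 replicate 2 than in replicate 1, with a median log2 difference of -0.64. Of the 30 G2/M genes 13 were lower, with a median of 0.04. The differences of E2F1, E2F2, E2F8 and RBL1, from -0.95 to -0.56, lay around the G1/S median. The EZH2 gene was the G1/S gene that was not lower, at 0.07. In the control libraries the medians of replicate 2 minus replicate 1 were -0.09 for the G1/S genes and 0.15 for the G2/M genes. These medians run over genes of the same libraries, and genes are not replicates.

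**Figure D5:**
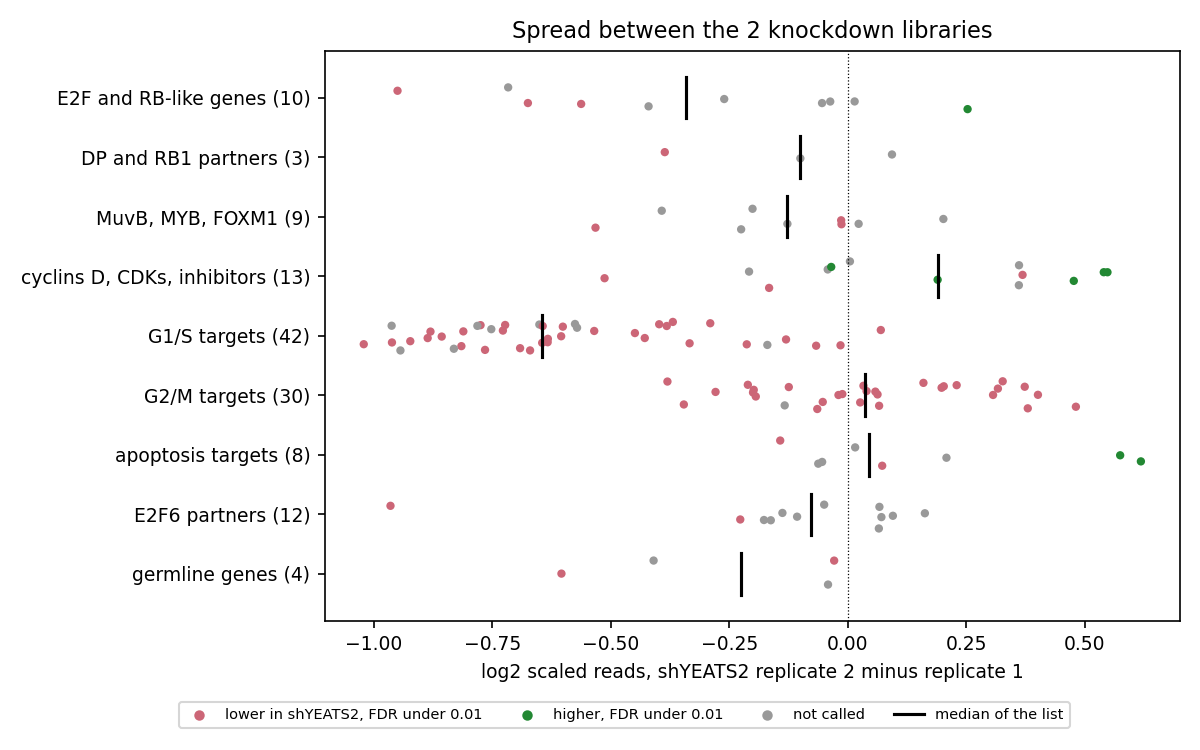
Log2 difference in scaled reads between the shYEATS2 libraries, replicate 2 minus replicate 1, for the genes of each list, with a black bar for the list median and colours for the call between groups. G1/S targets lie mostly below 0 with a median of -0.64, G2/M targets are centred near 0 at 0.04, and the E2F and RB-like genes are spread between -0.95 and 0.25.

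In the promoters of these lists, the E2F words were found in 26 of 53 for the G1/S genes (49.1%) and in 5 of 36 for the G2/M genes (13.9%), against 8.67% of all promoters. The CHR word TTTGAA, bound by MuvB, was found in 3.77% of the G1/S promoters and 58.3% of the G2/M promoters, against 15.2% of all. Among the members it was found in the upstream E2F3 promoter and in one RBL2 promoter. The words were chosen after the promoters had been seen. A match is a run of letters and does not show that a factor binds there.

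Of 13 listed cyclins, kinases and inhibitors upstream of the pocket proteins, 3 were called lower and 5 higher, with a median of 0.06, beside 12.5% lower and 12.9% higher over all genes. The leading changes were the rises of CCND2, a D cyclin (1.99), and of the kinase inhibitors CDKN2B (1.16) and CDKN1B (1.07), and the fall of the kinase gene CDK2 (-0.90). CCND2 was low, at 60.3 and 124 scaled reads in the controls and 298 and 433 in the YEATS2 KD libraries. CDKN1B, which encodes p27, was at 1428 and 1772 against 2736 and 4000. CCND1, another D cyclin, was called lower with 15910 and 14782 against 8716 and 7766 scaled reads (log2 fold change -0.90, adjusted p = 0.00152, edgeR). CDKN1A, which encodes p21, overlapped between the groups at 2086 and 1558 against 1894 and 2433 (log2 fold change 0.25, adjusted p = 0.271). The count called higher was 2 without shNT replicate 1 and 3 without shNT replicate 2.

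Of 8 apoptosis genes described as E2F targets, 2 were called lower and 2 higher, beside 12.5% and 12.9% of all genes. With exactTest, total counts, the replicate block or an FDR under 0.05 the count called higher was 4, and these settings called 18.6% to 24.4% of all genes higher. PMAIP1 (-1.34) and the p53 relative TP73 (-1.17) were lower, and the BH3-only genes BBC3 (1.66) and BCL2L11 (1.17) were higher. Of 12 genes for partners of E2F6, 2 were called lower, a share of 16.7% beside 12.5% of all genes, and 0 higher. At an unadjusted p under 0.05, 4 were lower and 4 higher, close to the 27.8% and 28.7% of all genes, and DESeq2 called 1 higher. Those called lower were WDR5, a subunit of several chromatin complexes including ATAC, and CBX3, a heterochromatin protein. WDR5 had 5873 and 5367 scaled reads in the controls and 1518 and 777 in the YEATS2 KD libraries (log2 fold change -2.29, adjusted p = 0.00176, edgeR), and CBX3 had a log2 fold change of -0.63. Of 17 germline genes known to be repressed by E2F6, 4 were listed, and of these the cohesin gene STAG3 (-1.01) and HORMAD1 (-0.50) were called lower and 0 higher. At an unadjusted p under 0.05 the counts for the germline genes were 2 and 0, and 1 of them was called lower with any of the 4 libraries left out. Without shNT replicate 1 the apoptosis genes called higher were 1 and the E2F6 partners called lower were 1. Without shNT replicate 2 the apoptosis genes called lower were 1 and the E2F6 partners called lower were 1.

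The genes whose values over the 4 libraries ran closest to those of E2F8 and E2F6 were found by Euclidean distance between gene-centred log2 CPM values (reads scaled to a common library size, with 2 added as prior count), among genes with a mean count of at least 100. For E2F8 they were NXT1, an mRNA export factor (distance 0.134), the transcription factor MYB (0.144) and CDR2L (0.179), with log2 fold changes of -1.92, -2.03 and -1.93. MYB was low, at 176 and 148 scaled reads in the controls and 45.2 and 34.5 in the YEATS2 KD libraries. For E2F6 they were the sialomucin CD164 (0.0153), the vesicle SNARE SEC22B (0.0225) and the ubiquitin ligase MYCBP2 (0.0314), with log2 fold changes of 0.56, 0.58 and 0.56. With 4 libraries in 2 groups, this distance is a description and carries no test.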

How the data were processed

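RNA-seq of H1299 cells was analysed from 2 shNT and 2 shYEATS2 libraries, and the ChIP-seq samples of the series were not used here. According to the study's methods, the authors aligned the reads against hg19 by means of the RNA-Seq unified mapper. The submitters' processing notes list TopHat2 2.0.10 and Bowtie2 2.1.0 with no role and do not name that mapper, so the aligner behind these counts is not settled. The deposited values are unscaled read counts by gene, made with HTSeq at default settings. The annotation is not given in the sources used here. The table also holds log2 fold changes and p-values of the comparison made by the authors, which were left aside.

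All 12676 genes met the filter (10 reads or more in 2 libraries or more). They were fitted in edgeR 4.0.16 under R 4.3.3 by the quasi-likelihood method after TMM scaling, no replicate block was used, and p was adjusted by Benjamini-Hochberg over all genes. The study describes its RNA-seq replicates as biological and independent, while the library labels give replicate numbers but no source cultures. The p-values weigh the difference between groups against the spread between these libraries, which edgeR estimates in part from all genes together. Alternatives were DESeq2 (1.42.0), exactTest, other scalings and filters, a replicate block, an FDR under 0.05, and each library left out, where a lone library was assumed to vary like the other group. The members and gene lists were chosen with earlier results of these data known, and the promoter words after the promoters had been seen. Genes named are all members, YEATS2, RB1, TFDP1, TFDP2, up to 4 genes of each other list with the largest change past the threshold and a mean of at least 100 scaled reads, CCNE1, CCNE2, CCND1, MYBL2, FOXM1 and CDKN1A, and the 3 nearest profiles of E2F8 and E2F6. CDC25B, DYRK1A and EZH2 were named after their values were seen. Positions are from GENCODE release 44 on GRCh37, to which 12465 identifiers (98.3%) matched, and it holds 7 pseudogenes of members, none of them in the count table. Over genes, log2 fold changes had a median standard error of 0.12. The test was also run on simulated counts with 200 changed genes. These had 1 dispersion setting for all genes and no shared replicate deviations, so the run does not cover the conditions of these libraries.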

Additional observations from a re-analysis of the deposited data

How the results depend on the processing

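The members called lower were 3 by edgeR's quasi-likelihood test, 5 by DESeq2 and 4 by exactTest or at an FDR under 0.05. They were 3 with total counts, upper quartile scaling, size factors of DESeq2, no filter or a mean count of at least 100, and 2 to 4 with a library left out. The members called higher were 1 in each of these settings except with a library left out, where they were 0 to 1. The median log2 fold change of the members lay between -0.49 and -0.25 with a library left out, and the RBL1 to RBL2 difference in log2 ratio between -0.95 and -0.33. E2F3 turned to 0.025 with total counts, a scaling that moved the median of all genes to 0.12. With total counts 1166 genes were lower and 2363 higher, so that 67.0% of calls were higher against 50.8% with TMM (1581 and 1630). DESeq2 called 2190 of all genes lower (17.3%) and 2159 higher (17%). The quasi-likelihood test called 12.5% lower and 12.9% higher. Over all genes exactTest called 2497 lower and 2596 higher, an FDR under 0.05 gave 3011 and 3093, and left-out libraries gave 850 to 2024 lower and 775 to 1971 higher. Samples with the same replicate number deviated together over genes (r = 0.40). Neither the labels nor the study says what samples of equal number share, and with 2 pairs this was not tested. With the replicate block 5 members were called lower (E2F1 at an adjusted p of 0.00258 and RBL2 at 0.00467 in addition) and 1 higher, and 2715 and 2742 of all genes. With 2 libraries a group, the spread of a single gene rests on few samples.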
